A study of Rattus norvegicus with 18 samples.

Results

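The submucosal fibroblast samples of dysplastic and normal rat tongue are described here, 6 of the 18 arrays of a study of oral carcinogenesis. They were chosen by their labels as the 3 dysplasia and the 3 normal fibroblast samples. The study separated tongue mucosa into epithelia and fibroblasts at 3 stages, normal, dysplasia and squamous cell carcinoma (SCC), with 3 samples per layer and stage, and measured each sample on 1 Affymetrix whole-genome rat array. Male Sprague Dawley rats of the dysplasia and SCC groups drank water with 0.002% 4-nitroquinoline oxide (4NQO, a DNA-damaging carcinogen) and were killed between weeks 14 and 22, once tongue lesions were visible, while normal control rats drank distilled water. Per the study's description, each sample combined tissue of 3 rats, the connective tissue under the epithelium was digested with collagenase, and the cells that attached to a dish within a short culture were collected as fibroblasts without sorting by a marker. The ages of the rats are not given, and exposure to 4NQO and presence of a lesion cannot be told apart, since every dysplasia sample had both. The comparison asks which genes differ in the stroma under a premalignant lesion.

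Fibroblasts of the oral lamina propria make and remodel the collagen-rich matrix below the epithelium. They also release cytokines, chemokines, complement and growth factors, and these secreted programmes are known to shift around epithelial tumors. A preparation made by attachment to plastic can carry other adherent cells with it, such as macrophages, mast cells, muscle cells and keratinocytes, so the levels of their marker genes are given before the comparison.

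Fibroblast markers were high in all of these samples. The mean log2 signal of 18 fibroblast markers was 12.25, 12.09 and 12.39 in normal samples 1 to 3, and 11.27, 11.26 and 12.16 in dysplasia samples 1 to 3, against a mean of 6.24 in normal epithelia. The list was thus lower in the first and second dysplasia samples than in any normal sample, and the third dysplasia sample lay among the normal ones. Markers of epithelial cells were nevertheless strong. The mean of 18 epithelial markers was 11.86, 11.87 and 9.99 in the normal and 12.07, 12.09 and 11.35 in the dysplasia fibroblast samples, against 12.71 in normal epithelia. Krt14, a keratin of basal keratinocytes, read 13.70, 13.71 and 12.88 in the normal and 14.10, 14.10 and 13.75 in the dysplasia samples, close to its mean of 14.10 in normal epithelia. The study checked the purity of both cell preparations by immunostaining for E-cadherin, keratin and vimentin, which was not analysed here. The samples are called fibroblast samples by their label, and epithelial transcripts were abundant in their RNA.

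Markers of leukocytes also differed among the samples. The mean of 21 macrophage markers was 10.56, 10.27 and 8.36 in the normal and 8.28, 8.20 and 9.89 in the dysplasia samples, so the groups overlapped and the third sample of each group stood apart from the other two. Csf1r, the macrophage colony-stimulating factor receptor, read 11.63, 11.38 and 8.91 in the normal and 8.29, 8.14 and 10.55 in the dysplasia samples. The mean of 13 neutrophil markers was 6.92, 6.91 and 7.27 in the normal samples and between 7.99 and 8.01 in the dysplasia samples, and the 30 T and NK cell markers averaged 5.70, 5.72 and 5.58 against 6.04, 5.99 and 6.21. These 2 lists did not overlap between the groups, nor did the 19 mast cell markers, at 7.76, 7.42 and 6.91 against 7.91, 7.88 and 8.33. The mean over all 14217 genes did not overlap either, at 8.04, 8.04 and 8.01 against 8.05, 8.05 and 8.05. Non-overlap of a list mean is therefore a description. In such bulk samples more cells of a type and more RNA per cell cannot be told apart.

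**Figure D1:**
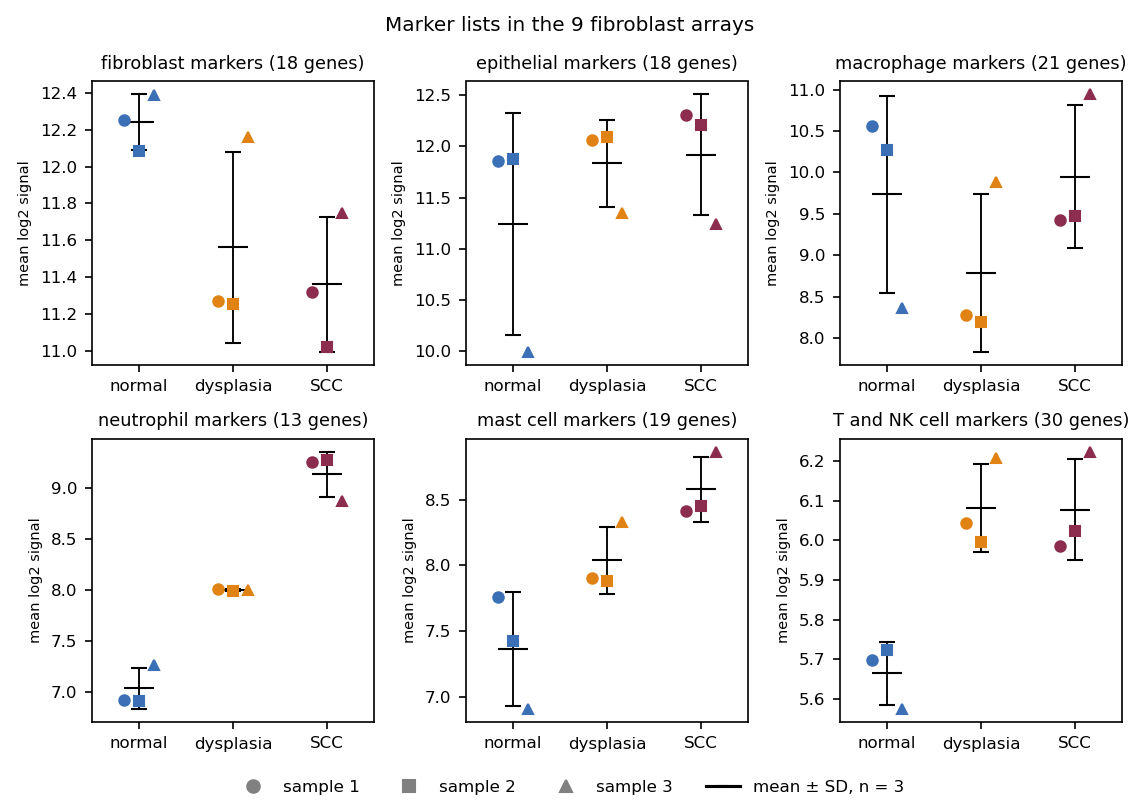
Mean log2 signal of 6 marker lists (vertical axes, each with its own range) in the 9 fibroblast arrays by stage; points are samples, horizontal marks the mean and bars the SD of 3 samples. Macrophage markers range from 8.20 to 9.89 in dysplasia and from 8.36 to 10.56 in normal samples, while neutrophil markers lie between 7.99 and 8.01 in the dysplasia samples and are at most 7.27 in the normal ones.

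Within each fibroblast group samples 1 and 2 were alike and sample 3 differed. Among probe sets whose log2 signal averaged over 7, the SD of the log2 difference between 2 arrays was 0.233 between normal samples 1 and 2 and 0.694 and 0.650 between either and normal sample 3. It was 0.189 between dysplasia samples 1 and 2 and 0.570 and 0.577 to dysplasia sample 3. Dysplasia sample 3 was nearer to normal samples 1 and 2, at 0.438 and 0.461, and stood at 0.675 from normal sample 3. In the study's own clustering 1 dysplasia fibroblast sample likewise grouped with the normal ones. The normal and dysplasia groups did not differ in the ratio of 3' to 5' signal of β-actin beyond its spread, with a log2 ratio of 1.74 ± 0.26 (SD, n = 3) and 1.78 ± 0.21 (SD, n = 3). The SCC fibroblast samples had a lower log2 ratio for β-actin, 1.20 ± 0.06 (SD, n = 3). Nothing in the labels says whether samples 1 and 2 came from separate pools of animals. The p-values therefore measure the spread between these samples, which may in part be technical.

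Of 31042 probe sets, 53 (0.171%) passed an adjusted p under 0.05 in limma's moderated test, 36 higher and 17 lower in dysplasia. All 53 had 3 dysplasia values that did not overlap the 3 normal values, which was so for 7282 of all 31042 probe sets (23.5%), so non-overlap of a single gene below is a description. At an unadjusted p under 0.05 combined with a difference of 2-fold or more, 742 probe sets (2.39%) were counted, 344 higher and 398 lower. The study's methods name a fold with a detection p, a measure that is not in the values used here. The third samples decided how many were called. Without dysplasia sample 3, 1000 probe sets passed the adjusted test, and without the third sample of both groups 1499 passed, in each case with all 53 among them. Without normal sample 3 the number was 150. Leaving out any other normal or dysplasia sample left 10 to 15. When samples 1 and 2 of each stage were averaged into 1 sample, limma called 0 probe sets at the adjusted threshold and 1815 at an unadjusted p under 0.05. With the sample number as a replicate block it called 1449, the 53 included.

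The called probe sets that name 1 gene stand for 27 genes that rose and 5 that fell. With 1 probe set per gene, the one of highest mean signal, 23 of 14217 genes were called higher (0.162%) and 1 lower (0.00703%). At an unadjusted p under 0.05, 1697 genes (11.9%) were higher and 1145 (8.05%) lower, and these shares are the background for the counts of the gene lists below. Where a list is counted without the third samples, the background is that of the same fit, in which 645 genes (4.54%) were called higher and 278 (1.96%) lower. In what follows a gene rose or fell where its adjusted p passed, and other values are given as measured.

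The largest rises included secreted proteins of the innate and acute-phase response. Saa3, serum amyloid A3, an acute-phase apolipoprotein made outside the liver, had a log2 signal of 4.89, 5.33 and 5.52 in the normal samples and 10.78, 10.70 and 9.25 in the dysplasia samples. Every dysplasia sample thus lay more than 3 log2 units above every normal sample. The rise was 4.99 ± 0.58 on the log2 scale (SE, n = 3 per group, adjusted p = 0.0165), or 31.9-fold, and the call was lost when signals under 32 were set to 32 (adjusted p = 0.0590). In the SCC samples Saa3 read 12.62, 12.77 and 10.65.

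Serpina3n, an inhibitor of serine proteases such as granzyme B and cathepsin G, read 7.56, 7.42 and 7.27 in the normal and 11.44, 11.38 and 10.26 in the dysplasia samples. It rose by 3.61 ± 0.30 on the log2 scale (SE, n = 3 per group, adjusted p = 0.00294). C3, the central component of complement, read 8.18, 7.96 and 8.25 against 9.64, 9.57 and 10.08, with all dysplasia values above all normal ones. It rose by 1.63 ± 0.17 (log2, SE, adjusted p = 0.0118), a call that was lost with arrays aligned on spike-in controls (adjusted p = 0.0538). Serpina3n and C3 were the 2 called genes among 20 acute-phase genes measured, and Saa3 was not among those 20. The median log2 change of that list was 0.12 against 0.00 over all genes.

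The sequences before the start sites of these 3 genes are shown because they are the called secreted genes of this response. They are the 250 bases upstream of each start in RefSeq (build GRCr8), printed 5′ to 3′ on the gene's strand, with capitals where a searched motif matched. The motifs, searched on both strands, were TTCNNNGAA (the STAT palindrome), TTGCNNAA (a C/EBP form), GGGANTTTC (an NF-kB form) and TGANTCA (the AP-1 form).
Saa3, chr1:106358431-106358680, minus strand: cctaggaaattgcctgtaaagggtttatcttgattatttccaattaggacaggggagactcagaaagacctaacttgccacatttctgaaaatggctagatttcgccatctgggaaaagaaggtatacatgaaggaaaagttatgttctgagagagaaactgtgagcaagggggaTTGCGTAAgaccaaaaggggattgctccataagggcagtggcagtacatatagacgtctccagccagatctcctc
Serpina3n, chr6:129088142-129088391, plus strand: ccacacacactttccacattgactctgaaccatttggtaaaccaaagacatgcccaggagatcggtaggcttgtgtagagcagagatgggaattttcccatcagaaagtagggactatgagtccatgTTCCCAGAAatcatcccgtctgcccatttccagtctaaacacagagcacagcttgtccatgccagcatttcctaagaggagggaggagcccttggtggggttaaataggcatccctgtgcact
C3, chr9:2201340-2201589, minus strand: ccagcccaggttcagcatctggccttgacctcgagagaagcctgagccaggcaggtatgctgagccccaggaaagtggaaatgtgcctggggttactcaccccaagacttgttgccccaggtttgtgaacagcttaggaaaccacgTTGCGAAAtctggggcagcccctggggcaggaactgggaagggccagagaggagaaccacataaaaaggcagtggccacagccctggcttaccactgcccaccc

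Saa3 and C3 each held 1 match to TTGCNNAA, and Serpina3n held 1 match to TTCNNNGAA. Over all 33469 promoters of the same length, 9.22% held TTGCNNAA, 7.67% TTCNNNGAA, 0.953% GGGANTTTC and 6.34% TGANTCA. Of the 27 genes that rose, 21 had a promoter in the table, and 5, 4, 1 and 0 of them held these motifs in the same order. A match describes letters and not a bound site.

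Chi3l1, a chitinase-like glycoprotein secreted by activated stromal cells and macrophages, read 8.08, 7.73 and 8.52 in the normal and 10.31, 10.17 and 10.27 in the dysplasia samples. The 3 dysplasia values lay within 0.2 log2 units of each other, the rise was 2.14 ± 0.19 (log2, SE, n = 3 per group, adjusted p = 0.00457), and the SCC values were 11.53, 11.54 and 11.44. Stfa2l2, a cystatin of the stefin A family that inhibits cysteine proteases, rose by 3.58 ± 0.33 (log2, SE, adjusted p = 0.00557). The mean of Stfa2l2 was 7.93 in the normal and 11.51 in the dysplasia fibroblast samples, and 10.54 in normal epithelia. Ctsc, cathepsin C, which activates the serine proteases of neutrophils and mast cells, rose by 1.26 ± 0.13 (log2, SE, adjusted p = 0.0118), while its other probe set gave 0.53 (adjusted p = 0.107). Prss3bl1, a gene of the trypsin family, had low signals of 2.75, 3.32 and 3.50 in the normal samples and 6.84, 7.34 and 7.22 in the dysplasia samples, and rose by 3.94 ± 0.23 (log2, SE, adjusted p = 0.000826). Stefin A, trypsin and mast cell protease genes have close relatives, and probes of one may bind transcripts of another. G0s2, an inhibitor of the lipase that breaks down stored triglycerides, read 9.95, 9.68 and 10.40 against 12.22, 12.14 and 11.50, and rose by 1.94 ± 0.27 (log2, SE, adjusted p = 0.0423).

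Genes of lymphocytes rose from low levels. Cd3e and Cd3g, chains of the T cell receptor complex, rose by 1.51 ± 0.12 (adjusted p = 0.00278) and 1.11 ± 0.13 (adjusted p = 0.0185) on the log2 scale. Cd3e read 5.58, 5.62 and 5.59 in the normal and 7.20, 6.99 and 7.13 in the dysplasia samples, and the other Cd3e probe set gave 0.44 (adjusted p = 0.298). With arrays aligned on spike-in controls neither was called (adjusted p = 0.0615 for Cd3e and 0.268 for Cd3g), and of the lymphocyte genes named below Ptprcap, Icos and Il2rb lost their calls too (adjusted p = 0.186, 0.390 and 0.378). Ltb, lymphotoxin beta, read 6.27, 6.12 and 6.08 against 8.20, 7.99 and 7.58 and rose by 1.77 ± 0.23 (log2, SE, adjusted p = 0.0252). Il2rb, a subunit of the receptors for IL-2 and IL-15, the costimulatory receptor Icos, and Ptprcap, which binds the phosphatase CD45, rose by 0.94, 0.94 and 1.22 on the log2 scale. Icos rested on 1 of its 3 probe sets, the others giving 0.85 and 0.22 without a call. Gata3, a transcription factor of type 2 lymphocytes and of some epithelia, rose by 1.96 ± 0.28 (log2, SE, adjusted p = 0.0432), and its other probe set gave -0.09.

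Of 30 T and NK cell genes measured, 3 were called higher and 0 lower, and 12 were higher and 0 lower at an unadjusted p under 0.05 in limma. The median of the list was 0.20 on the log2 scale. Lat, an adaptor below the T cell receptor, read 6.60, 6.59 and 6.03 against 7.58, 7.47 and 7.74 without passing the adjusted test (log2 difference 1.19, adjusted p = 0.0667). Of 10 B and plasma cell genes, 1 was higher and 1 lower at an unadjusted p under 0.05, none was called by limma, and the median was -0.01.

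One mast cell protease stood out within its list. Mcpt10, which encodes a chymase-type protease stored in mast cell granules, read 5.25, 4.44 and 4.48 in the normal and 8.44, 8.28 and 8.30 in the dysplasia samples. The groups were separated by more than 3 log2 units, and the rise was 3.62 ± 0.22 (log2, SE, n = 3 per group, adjusted p = 0.000826). In the SCC samples it read 9.16, 9.55 and 9.49. Of the 19 mast cell genes measured Mcpt10 was the one called, 5 were higher and 0 lower at an unadjusted p under 0.05, and the list median was 0.29. Cpa3, the carboxypeptidase of connective tissue mast cells, had 12.08, 11.71 and 10.50 in the normal and 11.73, 11.72 and 12.27 in the dysplasia samples. These ranges overlapped, the difference was 0.48 (log2, adjusted p = 0.525), and it turned to -0.17 without the third samples. Fcer1a, the IgE-binding chain of the high-affinity IgE receptor, read 6.88, 6.73 and 4.95 against 8.97, 9.01 and 9.19 (log2 difference 2.87, adjusted p = 0.0846).

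Neutrophil genes were higher as a list without a called member. Of 13 measured, 6 were higher and 0 lower at an unadjusted p under 0.05 in limma, with a median of 0.87. Csf3r, the receptor for granulocyte colony-stimulating factor, read 7.25, 6.73 and 6.98 in the normal and 9.48, 9.28 and 8.30 in the dysplasia samples (log2 difference 2.03 ± 0.31, SE, adjusted p = 0.0532). The calprotectin subunit S100a8 read 10.11, 9.96 and 11.49 against 12.11, 12.17 and 12.42 (log2 difference 1.71, adjusted p = 0.102). All dysplasia values of both genes exceeded all normal values. Without the third samples, 5 of the 13 were called higher and 1 lower, against 4.54% and 1.96% of all genes in that fit.

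**Figure D2:**
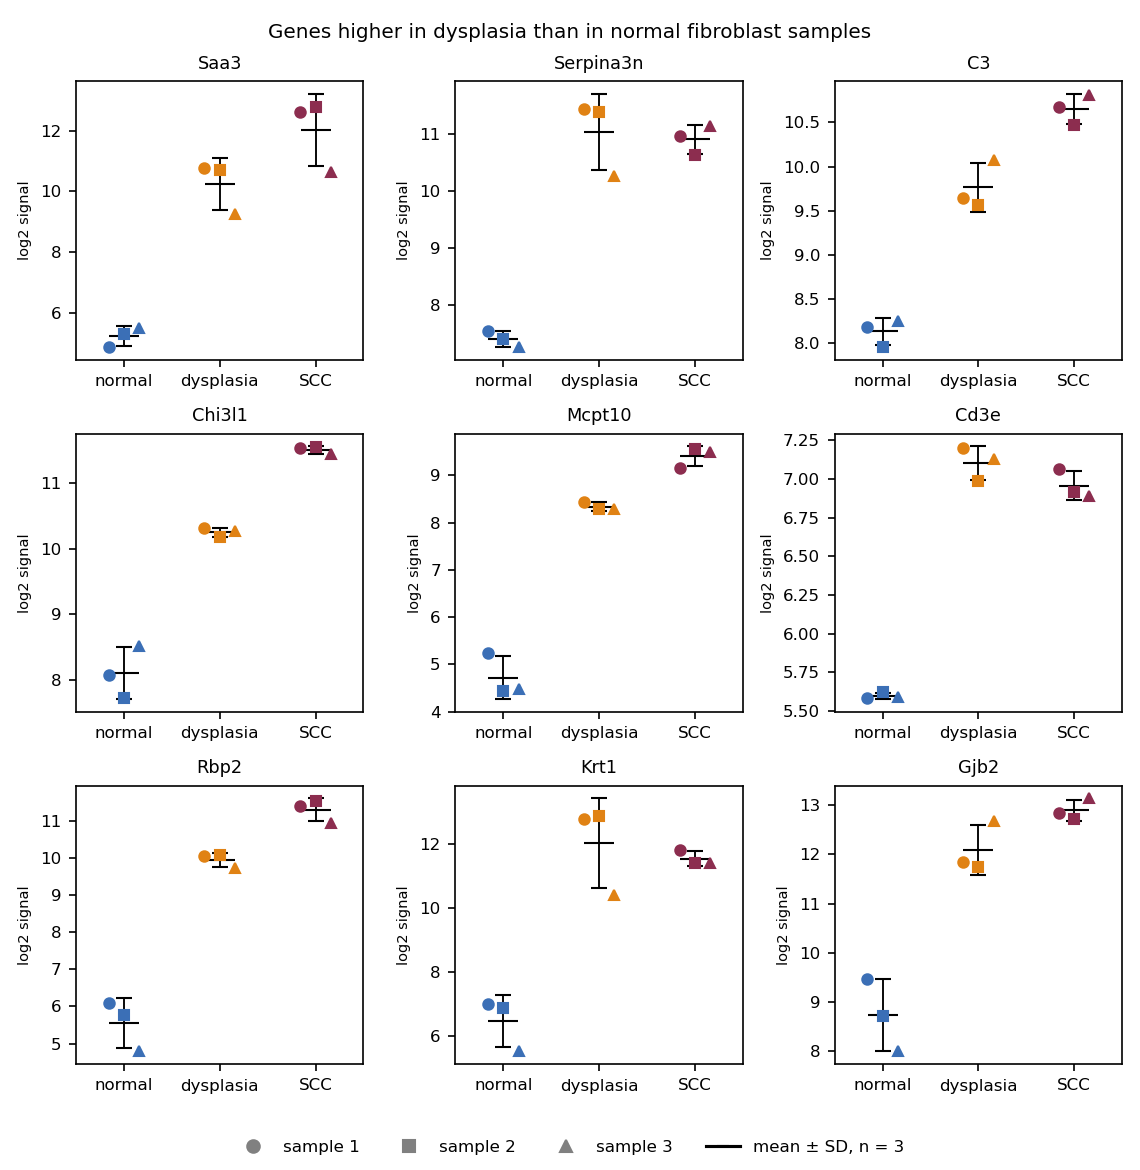
Log2 signal of 9 genes called higher in dysplasia (vertical axes, each with its own range) in the 9 fibroblast arrays by stage; points are samples, horizontal marks the mean and bars the SD of 3 samples. In each panel the 3 dysplasia values lie above the 3 normal values. Dysplasia sample 3 is below the other dysplasia samples for Saa3, Serpina3n, Rbp2 and Krt1.

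Several of the largest rises were genes of keratinocytes. Krt1, a keratin of cells above the basal layer of cornifying epithelia, had the largest fold change among called genes. It read 7.02, 6.88 and 5.53 in the normal and 12.78, 12.85 and 10.40 in the dysplasia fibroblast samples. The rise was 5.53 ± 0.64 (log2, SE, adjusted p = 0.0162) or 46.3-fold. Under the same floor on signals, which left the fibroblast values of Krt1 unchanged, the adjusted p was 0.0574. In the epithelia Krt1 had a mean of 10.23 in normal and 13.31 in dysplasia samples. The connexin genes Gjb2 and Gjb6, whose products form gap junctions between keratinocytes, rose by 3.36 ± 0.37 (adjusted p = 0.0139) and 3.40 ± 0.48 (adjusted p = 0.0434) on the log2 scale. Gjb2 read 9.46, 8.72 and 8.0 in the normal and 11.85, 11.75 and 12.67 in the dysplasia samples, below its mean of 13.48 in normal epithelia.

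Rbp2, a cellular retinol-binding protein, read 6.10, 5.76 and 4.79 in the normal and 10.06, 10.09 and 9.75 in the dysplasia samples. It rose by 4.42 ± 0.31 (log2, SE, n = 3 per group, adjusted p = 0.00193), or 21.4-fold, and its mean in normal epithelia was 11.42. It was the 1 called gene among 31 of retinoid binding and metabolism, whose median change was -0.01. Tgfa, transforming growth factor alpha, which activates the EGF receptor, rose by 1.12 ± 0.16 (log2, SE, adjusted p = 0.0434), with 0.67 (adjusted p = 0.0977) from its other probe set. Car2, carbonic anhydrase 2, rose by 2.94 ± 0.34 (log2, SE, adjusted p = 0.0162), and its other probe set gave 2.12 (adjusted p = 0.109). Pals2, a membrane scaffold protein of cell junctions, rose by 1.49 ± 0.22 (log2, SE, adjusted p = 0.0477), and its other 4 probe sets gave 0.09 to 0.82 without a call.

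The epithelial lists gave the background for these genes. Of 25 genes of cornification and suprabasal differentiation, Krt1 was called and 12 were higher and 0 lower at an unadjusted p under 0.05 in limma, with a median of 1.61. Their summed level moved with the groups, at a list mean of 9.43, 8.90 and 7.41 in the normal and 10.68, 10.47 and 10.03 in the dysplasia samples. Sprr1b, a precursor of the cornified envelope, read 9.03, 8.80 and 6.79 against 12.43, 12.48 and 11.43 (log2 difference 3.91, adjusted p = 0.0532). Of the 18 general epithelial markers 2 were higher at an unadjusted p under 0.05, none was called, and their median was 0.61. That median was 0.28 without the third samples, and Cdh1, which encodes E-cadherin, went from 0.47 to -0.12. The part of epithelial RNA in these rises was not tested.

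Genes of skeletal muscle, which lies under the tongue mucosa, were also higher. Mb, the oxygen-binding protein myoglobin, read 7.92, 8.36 and 8.13 in the normal and 9.89, 10.01 and 9.51 in the dysplasia samples, and rose by 1.67 ± 0.21 (log2, SE, n = 3 per group, adjusted p = 0.0214). Cox8b, a cytochrome c oxidase subunit of heart and skeletal muscle, read 6.36, 6.76 and 5.94 against 8.28, 8.33 and 8.01 and rose by 1.85 ± 0.26 (log2, SE, adjusted p = 0.0413). Under the floor on signals neither Mb nor Cox8b was called (adjusted p = 0.0527 and 0.0659). All fibroblast values of both genes lay above that floor, which left their own values unchanged. In the SCC samples Mb read 8.38, 8.72 and 9.03 and Cox8b 6.42, 7.05 and 7.23. Of 39 muscle genes 1 was called, 20 were higher and 0 lower at an unadjusted p under 0.05 in limma, and the median was 0.57.

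Without the third samples, 12 of these 39 genes were called higher and 0 lower, against 4.54% of all genes higher. Ckm, muscle creatine kinase, read 7.63, 7.96 and 7.16 in the normal and 9.69, 9.72 and 8.74 in the dysplasia samples (log2 difference 1.80, adjusted p = 0.0724). Of 55 genes of oxidative phosphorylation Cox8b was called, 19 were higher and 0 lower at an unadjusted p under 0.05, and the median was 0.25. Eci1, an enzyme of fatty acid oxidation, rose by 1.53 ± 0.19 (log2, SE, adjusted p = 0.0214) on a probe set with signals of 4.43 to 6.29, whereas its brighter probe set gave -0.06 (adjusted p = 0.899). Tbc1d10c, an inhibitor of Ras signalling and calcineurin in lymphocytes, rose by 1.21 ± 0.18 (log2, SE, adjusted p = 0.0477).

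The genes called lower were few, and each rested on 1 of several probe sets. Gnas, the stimulatory G protein alpha subunit, read 10.68, 10.48 and 10.29 in the normal and 8.87, 8.52 and 8.84 in the dysplasia samples on this probe set, which fell by 1.74 ± 0.20 on the log2 scale (SE, n = 3 per group, adjusted p = 0.0162). Its brightest probe set gave -0.22 (adjusted p = 0.442) and the third -1.15 (adjusted p = 0.193). Pafah1b1, a regulator of the dynein motor, had a called probe set at -1.48 ± 0.15 (log2, SE, adjusted p = 0.00943) and another at -0.22 (adjusted p = 0.390). Pik3ca, the catalytic subunit of PI3-kinase alpha, had one at -1.18 ± 0.14 (log2, SE, adjusted p = 0.0199) and 5 others between -0.61 and -0.17 without a call.

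Tpm1, an actin-binding tropomyosin, had a called probe set at -1.20 ± 0.16 (log2, SE, adjusted p = 0.0345) and 6 others from -1.15 to 1.36 without a call. Cgnl1, a junction protein, had one at -1.40 ± 0.20 (log2, SE, adjusted p = 0.0434) and another at -0.09. These values describe single probe sets and not a fall of the whole gene. A further 12 probe sets that fell and 9 that rose named no single gene. Of these, 2 that rose, by 2.15 and 2.88 on the log2 scale, were called in each of the 9 fits that left out 1 fibroblast sample.

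Several lists of extracellular matrix genes were lower, and none of their genes was called in the comparison of 3 against 3 samples. Of 26 collagen chains, 0 were higher and 11 lower at an unadjusted p under 0.05 in limma, against 8.05% of all genes lower, and the median was -0.74. Of 17 genes that modify or crosslink collagen 6 were lower and 0 higher, with a median of -0.72. Of 34 genes of proteoglycans, elastic fibres and matricellular proteins 6 were lower and 0 higher, with a median of -0.56. Matrix proteases and their inhibitors had 6 of 29 lower and 0 higher, with a median of -0.50. The medians of the same lists in the epithelia were between 0.03 and 0.12. Basement membrane genes were more mixed. Of 20 measured, 3 were higher and 2 lower at an unadjusted p under 0.05 in limma, with a median of -0.36. Without the third samples 3 were higher and 8 lower at that threshold, with a median of -0.21. Of all 14217 genes, 2529 were higher and 1981 lower in that fit.

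Col1a1, the alpha 1 chain of type I collagen, read 12.89, 12.72 and 13.48 in the normal and 11.95, 11.92 and 12.78 in the dysplasia samples. The third dysplasia sample overlapped the normal range, and the log2 difference was -0.81 ± 0.27 (SE, n = 3 per group, adjusted p = 0.195). Col6a3, a chain of microfibrillar type VI collagen, read 12.77, 12.52 and 13.37 against 11.31, 11.29 and 12.65 (log2 difference -1.14, adjusted p = 0.205). Fn1, fibronectin, read 13.63, 13.44 and 13.55 against 12.48, 12.43 and 13.33 (log2 difference -0.79, adjusted p = 0.188). In each of these genes samples 1 and 2 of the dysplasia group were low and sample 3 was near the normal level.

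Loxl2, a lysyl oxidase that crosslinks collagen, read 10.13, 9.61 and 11.83 in the normal and 7.83, 7.81 and 9.06 in the dysplasia samples, with no overlap (log2 difference -2.29 ± 0.57, SE, adjusted p = 0.132). Plod2, a collagen lysyl hydroxylase, read 10.64, 10.32 and 11.38 against 9.08, 8.97 and 10.24 (log2 difference -1.35, adjusted p = 0.165). Mmp14, a membrane-bound collagenase, read 11.78, 11.63 and 12.57 against 10.03, 10.35 and 11.51 (log2 difference -1.36, adjusted p = 0.162). For all of these the dysplasia values lay below the normal ones, and the difference did not pass the adjusted test.

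**Figure D3:**
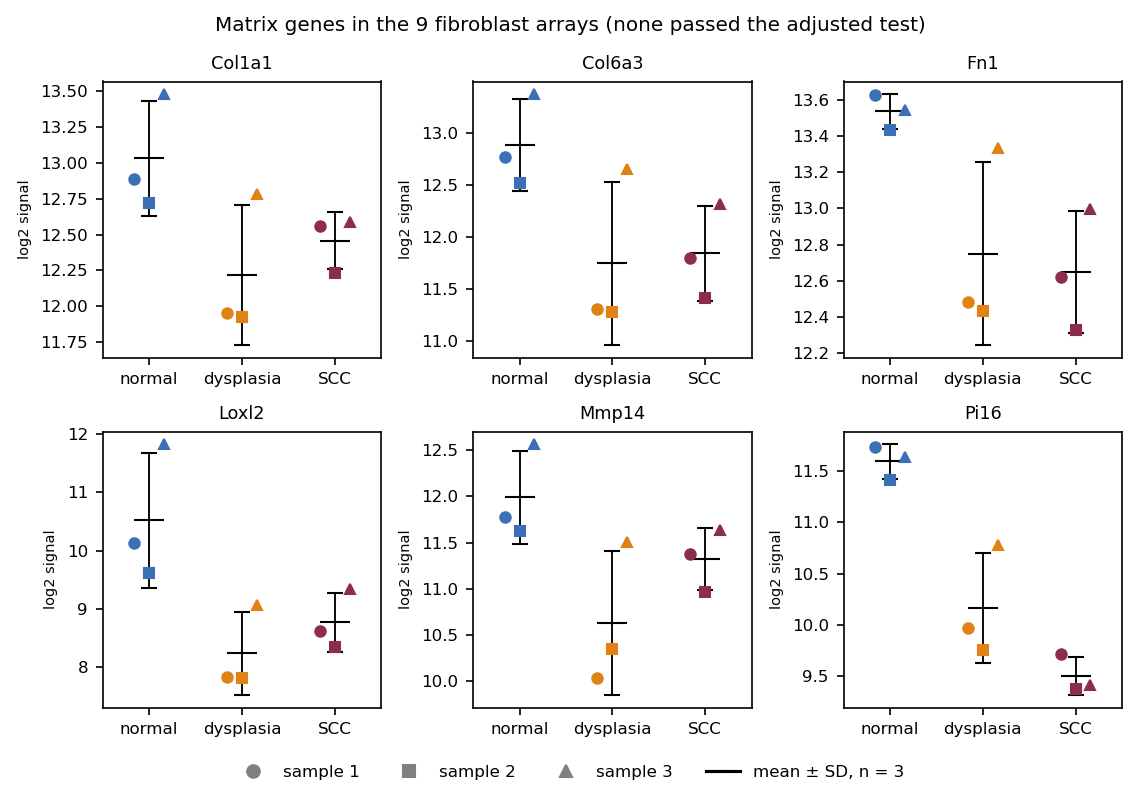
Log2 signal of 6 matrix or fibroblast genes (vertical axes, each with its own range) in the 9 fibroblast arrays by stage; points are samples, horizontal marks the mean and bars the SD of 3 samples. Dysplasia sample 3 lies above dysplasia samples 1 and 2 in every panel, for example at 13.33 against 12.48 and 12.43 for Fn1.

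Fibroblast markers shared this pattern, with 8 of 18 lower and 0 higher at an unadjusted p under 0.05 in limma and a median of -0.53. Pi16, a marker of adventitial fibroblasts, read 11.74, 11.41 and 11.63 in the normal and 9.97, 9.75 and 10.77 in the dysplasia samples (log2 difference -1.43 ± 0.25, SE, adjusted p = 0.0724). Thy1, a surface protein of fibroblasts, read 11.39, 11.18 and 11.65 against 9.10, 9.22 and 10.91 (log2 difference -1.66, adjusted p = 0.149). Dcn, which encodes the abundant proteoglycan decorin, differed by -0.22 (log2, adjusted p = 0.484), with ranges of 14.08 to 14.14 and 13.75 to 14.15. The fibroblast markers were thus lower together with the matrix lists in dysplasia samples 1 and 2, and their part in the matrix values was not tested. Of 27 genes of fibroblast activation 4 were lower and 1 higher at an unadjusted p under 0.05, with a median of -0.52.

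Without the third sample of both groups, 4 of 26 collagen chains, 4 of 17 collagen-modifying genes and 4 of 18 fibroblast markers were called lower and 0 higher, against 1.96% of all genes lower. In the same fit 8 of 21 macrophage markers were called lower and 0 higher, with a median of -1.99, and their part in the matrix values was not tested. In that fit Pi16 differed by -1.71 (adjusted p = 0.0126) and Loxl2 by -2.05 (adjusted p = 0.0280).

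**Figure D4:**
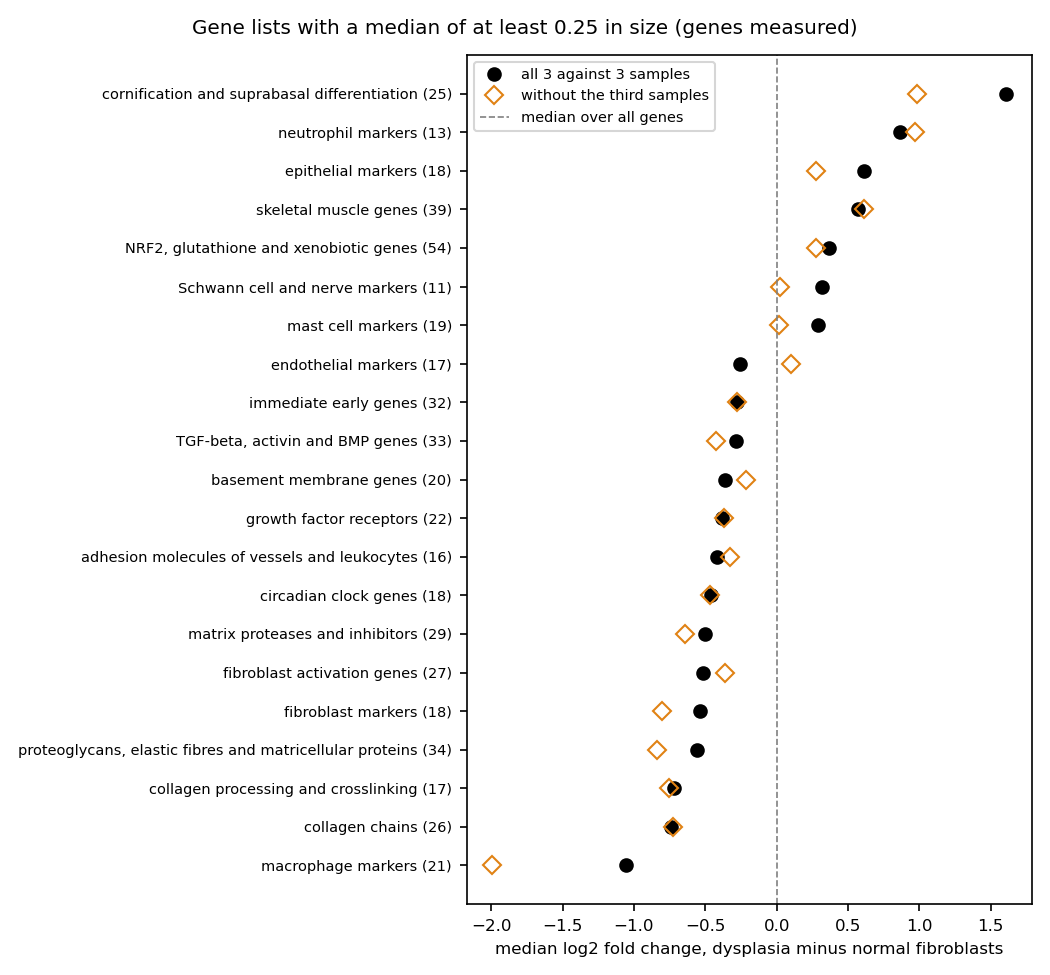
Median log2 fold change, dysplasia minus normal fibroblast samples (horizontal axis), of the gene lists whose median was at least 0.25 in size, with the number of genes measured in brackets; filled circles use all samples, open diamonds leave out the third normal and dysplasia samples, and the dashed line is the median over all genes. Collagen chains lie at -0.74 and -0.73, whereas macrophage markers move from -1.05 to -1.99 and cornification genes from 1.61 to 0.98.

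Genes of the NRF2 and glutathione programme, which detoxify electrophiles, were mostly higher. The log2 difference was positive for 42 and negative for 12, against 7131 and 7086 of all genes, and the list median was 0.37. Of 54 measured, 15 were higher and 6 lower at an unadjusted p under 0.05 in limma, against 11.9% and 8.05% of all genes, and none was called. Gsta3, a glutathione S-transferase, read 3.71, 3.02 and 3.50 in the normal and 7.80, 7.99 and 5.69 in the dysplasia samples (log2 difference 3.75 ± 0.61, SE, adjusted p = 0.0584). Gclm, the modifier subunit of the enzyme that begins glutathione synthesis, read 8.87, 9.03 and 8.54 against 11.75, 11.74 and 9.89 (log2 difference 2.31, adjusted p = 0.109). Gstm1 read 10.48, 10.46 and 9.08 against 12.96, 12.98 and 11.73 (log2 difference 2.55, adjusted p = 0.0858).

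In all 3 genes the third dysplasia sample was lowest of its group and still above the normal samples. Hmox1, heme oxygenase 1, was on the lower side, at 11.42, 11.42 and 11.62 against 10.65, 10.63 and 11.41 (log2 difference -0.59, adjusted p = 0.208). Without the third samples 13 genes of this list were called higher and 1 lower, against 4.54% and 1.96% of all genes. In the epithelia Gsta3, Gclm and Gstm1 were higher in dysplasia by 3.88, 3.13 and 3.64 on the log2 scale, with adjusted p of 0.00262, 0.00151 and 0.000163 in limma, and the layer difference was not called for any of them (adjusted p = 0.956, 0.548 and 0.307).

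Cdkn2a, which encodes the cell cycle inhibitor p16, read 4.97, 4.84 and 4.41 in the normal and 8.97, 7.79 and 7.17 in the dysplasia fibroblast samples (log2 difference 3.24 ± 0.57, SE, adjusted p = 0.0724). It was higher by 5.80 (log2, adjusted p = 8.39e-06) in dysplastic epithelia, and the difference between layers passed the test (-2.57, adjusted p = 0.0377). Of 61 cell cycle genes 3 were higher and 1 lower at an unadjusted p under 0.05, with a median of 0.05 in the fibroblast samples and 0.94 in the epithelia.

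The IL-1 genes, on which the study focused, did not pass the adjusted test between these 2 groups. Il1b, a cytokine of the inflammatory response, read 12.38, 12.20 and 11.22 in the normal and 12.69, 12.67 and 12.83 in the dysplasia samples. The dysplasia values lay above the normal values by a narrow margin, and the difference was 0.79 ± 0.26 (log2, SE, n = 3 per group, adjusted p = 0.191). It was 0.39 (adjusted p = 0.112) without the third samples. In the SCC samples Il1b read 13.59, 13.65 and 13.66.

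The related ligand Il1a read 8.65, 8.34 and 7.25 against 9.52, 9.45 and 10.57 (log2 difference 1.77, adjusted p = 0.120). Il1rn, the antagonist of the IL-1 receptor, read 6.66, 6.59 and 5.82 against 8.75, 8.34 and 8.23 (log2 difference 2.08 ± 0.39, SE, adjusted p = 0.0847). Il1r2, the decoy receptor, was nearest to the threshold, at 9.24, 9.09 and 9.24 against 11.52, 11.45 and 10.42 (log2 difference 1.94 ± 0.29, SE, adjusted p = 0.0521). Il1r2 is also one of the neutrophil markers. The signalling receptor Il1r1 read 10.38, 10.30 and 11.19 against 10.10, 10.30 and 10.80 (log2 difference -0.22, adjusted p = 0.717), and its partner Il1rap differed by 0.54 (log2, adjusted p = 0.169). In the list of the IL-1 family with the inflammasome, 5 of 25 were higher and 1 lower at an unadjusted p under 0.05, with a median of -0.07.

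The study drew its networks from the change from normal to SCC, in epithelia and in fibroblasts, whereas dysplasia is compared with normal here. In this comparison the other genes of its IL-1 subnetwork gave mixed values, with its TGF-beta node read as Tgfb1 and Tgfb2. The mean of the 8 network genes was 10.23 ± 0.26 in the normal, 10.36 ± 0.85 in the dysplasia and 11.46 ± 0.31 in the SCC fibroblast samples (log2, SD, n = 3). Ccl2, a chemokine that attracts monocytes, read 12.81, 12.75 and 13.46 in the normal and 12.09, 12.16 and 12.81 in the dysplasia samples (log2 difference -0.65, adjusted p = 0.246). Tgfb1 and Tgfb2, ligands of the TGF-beta pathway, differed by -0.65 (adjusted p = 0.193) and -0.30 (adjusted p = 0.635). Ptgs2, the inducible cyclooxygenase, differed by -0.34 (adjusted p = 0.575) and the neutrophil chemokine Cxcl2 by 0.22 (adjusted p = 0.674).

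The collagenase Mmp13 rested on 1 sample, reading 7.17, 5.93 and 6.75 in the normal and 7.12, 6.83 and 11.58 in the dysplasia samples. The gelatinase Mmp9 likewise read 9.26, 9.0 and 7.11 against 7.55, 7.26 and 10.83, a difference of 0.09 (log2, adjusted p = 0.967) that became -1.73 (adjusted p = 0.00863) without the third samples. In dysplastic epithelia Ccl2, Ptgs2 and Il1b were higher by 4.15, 2.15 and 2.04 on the log2 scale (adjusted p = 8.39e-06, 0.00360 and 0.0210 in limma). The layer difference was called for Ccl2 (-4.80, adjusted p = 0.000189) and Ptgs2 (-2.49, adjusted p = 0.0261) and not for Il1b (-1.25, adjusted p = 0.355).

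Other lists were smaller in size. Of 32 immediate early genes 9 were lower and 0 higher at an unadjusted p under 0.05 in limma, with a median of -0.27. Klf6, an immediate early transcription factor, read 13.13, 13.13 and 13.10 against 12.32, 12.30 and 12.76 (log2 difference -0.66, adjusted p = 0.164). Icam1, a leukocyte adhesion molecule, read 12.45, 12.57 and 12.70 against 11.51, 11.59 and 11.93 without overlap (log2 difference -0.90 ± 0.17, SE, adjusted p = 0.0920). Of 34 interferon-induced genes 5 were higher and 4 lower, with a median of -0.13, and Ifit3 read 7.33, 7.34 and 6.85 against 9.36, 8.97 and 8.76 (log2 difference 1.86, adjusted p = 0.0930). Of 31 chemokines 5 were higher and 2 lower, with a median of 0.19.

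The same contrast was set against that in the epithelia by a test of the difference over all 18 arrays. It called 1282 of 31042 probe sets (4.13%), 682 with a more positive and 600 with a more negative change in the fibroblast samples. Of the 53 probe sets called in the fibroblast samples 29 were among them, a count that rests on the same fibroblast arrays and is no independent evidence. The test called Rbp2 (layer difference 3.95 ± 0.37, SE, adjusted p = 0.000189), whose change in the epithelia was 0.47. It also called Serpina3n (4.58, adjusted p = 0.00616) and Saa3 (4.73, adjusted p = 0.00658), with changes of -0.97 and 0.27 in the epithelia.

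For some genes the layers moved in opposite directions. Chi3l1 changed by -1.31 in the epithelia (log2, adjusted p = 0.0148), and its layer difference was 3.45 (adjusted p = 0.00139). Tbc1d10c changed by -2.30 there (log2, adjusted p = 8.39e-06), with a layer difference of 3.51 (adjusted p = 2.04e-05), and the Gnas probe set was higher there by 0.64 (adjusted p = 0.0384), with a layer difference of -2.38 (adjusted p = 0.000754). Car2 was higher in the epithelia by 4.00 (log2, adjusted p = 4.19e-05) and Ctsc by 1.19 (adjusted p = 0.00587), and their layer differences of -1.06 ± 0.55 (adjusted p = 0.282) and 0.08 ± 0.34 (SE, adjusted p = 0.923) were not called. Krt1 was higher in both layers, with a layer difference of 2.45 ± 0.76 (SE, adjusted p = 0.0819).

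**Figure D5:**
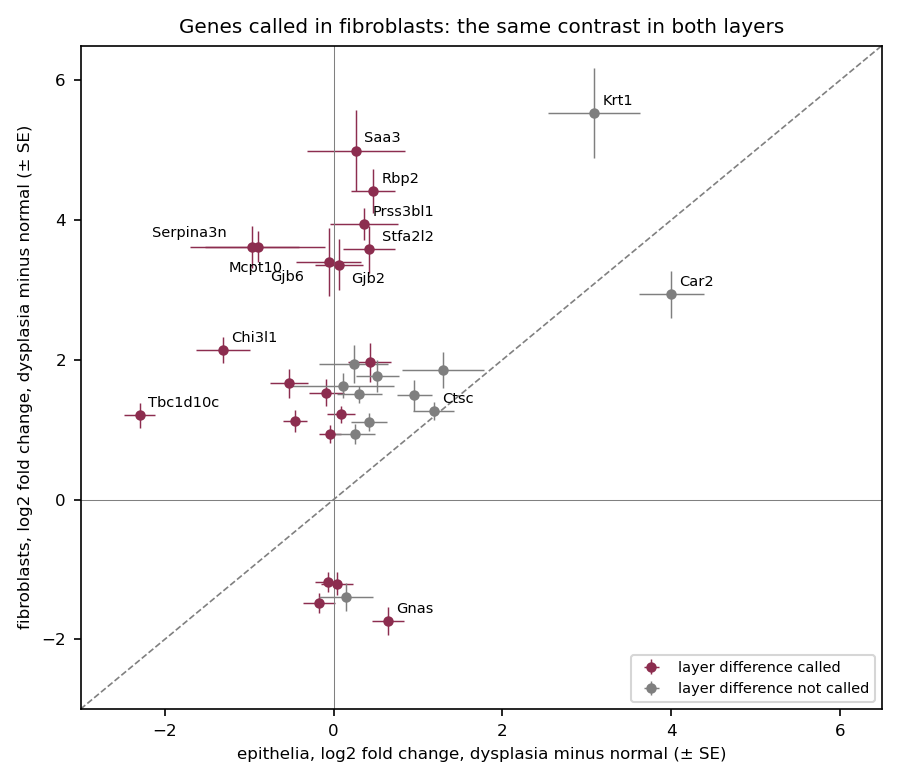
Log2 fold change, dysplasia minus normal, of the 32 genes called in the fibroblast samples, in the epithelia (horizontal axis) and the fibroblast samples (vertical axis); bars are SE, from the 18-array fit for the epithelia and the 9-array fit for the fibroblast samples, dark points have a called layer difference and the dashed line marks equal change. Saa3, Rbp2 and Serpina3n lie far above the line near 0 or below in the epithelia, and Car2 and Ctsc lie on or below it.

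Of the 32 named genes, 7 were called in every fit that left out 1 of the 9 fibroblast samples. They were Prss3bl1, Mcpt10, Rbp2, Cd3e, Serpina3n, Chi3l1 and Stfa2l2, with a highest adjusted p over those fits of 0.0494, for Stfa2l2. The 3 called genes with the highest adjusted p, Il2rb, Tbc1d10c and Pals2, passed in 2, 3 and 2 of the 9 fits.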

How the data were processed

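Linear intensity values deposited by the authors for 31099 probe sets on 18 arrays were used, and the submitters' processing notes name Affymetrix Expression Console and RMA. RMA gives log2 values, whereas the deposited ones run from 1 to 21626.06, and no source used here says how they were put on that scale. Values were set to log2, and 57 control probe sets were left out. Annotation names 1 gene for 20826 probe sets, several for 436 and none for 9780. The intensity of a probe set was compared only with itself. limma 3.58.1 in R 4.3.3 (lmFit, eBayes, Benjamini-Hochberg over 31042 probe sets, adjusted p under 0.05) fitted dysplasia minus normal in the 9 fibroblast arrays, and layer differences in all 18. For lists, 1 probe set per gene was used, that with the highest mean signal. The number of arrays limits the precision. The fits were tested on simulated data.

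Named were the 20 largest rises and 15 largest falls among called single genes, other called genes, up to 6 called or 3 uncalled members per list, the network and IL-1 genes and the brightest markers. Outside that rule, Cdh1, Ckm, Col6a3, Csf1r, Fcer1a, Gclm, Hmox1, Lat and Sprr1b were chosen after their values were seen. The comparison, lists and motifs were chosen with earlier results of these data known. Alternatives covered the arrays fitted, normalization, a filter and a floor on low signals, the spread model, probe sets per gene and single samples left out.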

Additional observations from a re-analysis of the deposited data

Results flagged for a closer look

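For 20 of the genes named as called in the fibroblast samples, the change from normal to dysplasia differed from that in the epithelia in limma's test of the difference itself over 18 arrays (adjusted p under 0.05). The values are log2 differences, fibroblasts minus epithelia. They were positive for Saa3 (4.73), Serpina3n (4.58), Mcpt10 (4.52), Rbp2 (3.95), Prss3bl1 (3.57), Tbc1d10c (3.51), Gjb6 (3.46), Chi3l1 (3.45), Gjb2 (3.30), Stfa2l2 (3.16), Mb (2.19), Eci1 (1.62), Tgfa (1.58), Gata3 (1.54), Ptprcap (1.13) and Icos (0.98). They were negative for Gnas (-2.38), Pafah1b1 (-1.31), Tpm1 (-1.25) and Pik3ca (-1.11), each on 1 of several probe sets of its gene. Among genes with a positive value, Gjb6, Gjb2, Rbp2, Tgfa and Tbc1d10c had higher means in normal epithelia than in dysplasia fibroblast samples. These means were 12.64, 13.48, 11.42, 10.36 and 8.23 against 8.33, 12.09, 9.97, 7.56 and 6.40. The other genes with a positive value had lower means in normal epithelia. The part of epithelial RNA in these differences was not tested.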

How the results depend on the processing

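The number of called probe sets, 53 in the comparison of dysplasia with normal fibroblast samples, depended on the fit. It was 13 with the 6 normal and dysplasia arrays alone, 1141 with all 18 arrays in 1 fit, 92 with arrays aligned on spike-in controls, 15 with 1 probe set per gene and 9633 with array weights, whose estimation did not fully converge. Student's t-test called 0 after Benjamini-Hochberg adjustment and 4412 at an unadjusted p under 0.05. The study names that test in its general statistics, and a fold with a detection p for the arrays. A floor of 32 on the signals gave 76 calls, 40 higher and 36 lower. Of the 53, 26 were among the calls with spike-in alignment and 29 among those with the floor, and 14 of the 32 named genes lost their call in each. With the alignment these were C3, Cd3e, Cd3g, Cgnl1, Ctsc, Eci1, Icos, Il2rb, Pals2, Pik3ca, Ptprcap, Tbc1d10c, Tgfa and Tpm1, and with the floor Car2, Cgnl1, Cox8b, Eci1, G0s2, Gata3, Icos, Krt1, Ltb, Mb, Pals2, Saa3, Tbc1d10c and Tgfa. For Car2, Cgnl1, Cox8b, G0s2, Krt1, Ltb, Mb, Pals2 and Tgfa all fibroblast values lay above the floor, which left their own values unchanged. Alignment on the spike-in controls moved the median log2 change of all probe sets from -0.04 to -0.15.

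Leaving out 1 sample at a time gave 10 to 1000 calls, 521 to 1590 probe sets past a fold of 2 (742 with all samples), and 476 to 1945 called layer differences (1282 with all samples). Among SCC samples, which share the estimate of spread, leaving out samples 1, 2 and 3 gave 31, 30 and 175 calls. The next 2 alternatives were chosen after seeing the data. Without the third sample of both groups, 1499 were called and 1488 passed a fold of 2, and with samples 1 and 2 averaged 0 were called by limma, 1815 passing an unadjusted p under 0.05. Past a fold of 2 there were 486 with a filter on mean log2 signal above 7. There were 456 in Student's t-test and 358 with 1 probe set per gene, and a fold of 1.5 gave 2726.

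With the sample number as a replicate block, 1449 probe sets and 2209 layer differences were called, all 53 among the former. Deviations of same-numbered samples correlated at 0.0255 to 0.194 over all probe sets, and those of different number at -0.203 to 0.116. Over those whose log2 signal averaged more than 7 the values were 0.1002 to 0.303 and -0.304 to 0.247. The ranges of same and different number overlapped in both selections of probe sets, so these values do not settle whether the numbers pair the samples. In both, each normal sample correlated best with the dysplasia sample of its own number. Dysplasia sample 1, however, correlated best with normal sample 2 in both.

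Uncalled genes that changed sign were Cdh1, Cpa3, Cxcl2, Il1r1 and Mmp9, and the cause was not tested. Without the third samples the log2 differences were -0.12 for Cdh1, -0.17 for Cpa3, -0.19 for Cxcl2 and -1.73 for Mmp9. With array weights they were -0.0589 for Cdh1, -0.0903 for Cxcl2 and -1.34 for Mmp9, and with spike-in alignment -0.0235 for Mmp9. Leaving out 1 sample gave -0.32 to 0.87 for Cdh1, -0.14 to 0.44 for Cxcl2, -0.42 to 0.0634 for Il1r1 and -1.05 to 0.73 for Mmp9. Probe sets near the lowest signal have the least certain log2 values.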
